A study of Mus musculus with 4 samples.

Results

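Glycolysis and hypoxia response genes were measured by array in primary Kupffer cells of the mouse, macrophages that live in the liver, after exposure to maresin 1. The set held 37 genes of glucose uptake, glycolysis, lactate handling and the hypoxia-inducible factor (HIF) response, taken from a fixed list and matched to probes through the RefSeq accession of each probe. All 37 genes had a probe, 61 probes in all out of 56605 on the array, and 1 gene, listed as Ero1l, was matched under its current symbol Ero1a. A probe was tested if its signal was well above background on both arrays of a group. This was so for 59 of the 61 probes, for at least 1 probe of each of the 37 genes, and for 31110 probes of 24049 genes on the whole array. Of these 24049, 14494 had a RefSeq symbol. The rest are array identifiers without one, each counted as a gene in the shares of all genes below. The 59 tested probes were well above background on all 4 arrays, and none was saturated.

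The maresin 1 group consisted of 2 arrays labelled MaR1, from cells kept for 24 h with 200 nM maresin 1, a mediator derived from an omega-3 fatty acid and known for promoting the resolution of inflammation. The vehicle group consisted of 2 arrays labelled Veh, from cells kept for the same time with ethanol alone. Both groups were Kupffer cells of male C57BL/6 mice aged 8 weeks, freed by collagenase perfusion of the liver, enriched on a Percoll gradient, and kept in medium with 0.1% serum during treatment. Separate animals or cultures are not named for the arrays of a group, so p-values reflect only how far these arrays lie apart, which may be technical. All arrays lay on 1 slide, with each group at its own pair of positions, so slide position and treatment cannot be told apart.

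Glycolysis splits glucose into pyruvate, which is either burnt in mitochondria or reduced to lactate and exported. HIF is a dimer of an oxygen-regulated alpha subunit and the constant subunit ARNT. In well-oxygenated cells prolyl hydroxylases mark the alpha subunit for destruction, and when oxygen falls the dimer binds hypoxia response elements and raises glycolytic enzymes, lactate export, vasoactive peptides and mitophagy genes. In macrophages this programme is also engaged by inflammatory and metabolic signals at normal oxygen, and a shift to glycolysis is a known feature of activated macrophages.

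Promoter sequences are shown for the members whose higher level was the most stable, for Ldha, whose probes differed, and for Pfkfb4, a member that fell. They are RefSeq windows of assembly GRCm38.p6 from 250 bases before to 50 bases after an annotated start, written 5′ to 3′ on the strand of the gene. Capitals mark the core of the hypoxia response element, searched as ACGTG and GCGTG on both strands, so that CACGT and CACGC are the same cores read from the other strand and CACGTG holds both at once. Epas1 had no entry.
Adm, chr7:110627407-110627706, plus strand: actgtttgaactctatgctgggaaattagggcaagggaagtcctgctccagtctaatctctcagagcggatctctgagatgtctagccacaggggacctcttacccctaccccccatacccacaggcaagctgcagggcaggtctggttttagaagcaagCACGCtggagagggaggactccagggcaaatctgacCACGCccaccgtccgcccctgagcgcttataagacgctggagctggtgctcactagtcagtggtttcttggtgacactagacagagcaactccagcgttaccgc
Ankrd37, chr8:45999801-46000100, minus strand: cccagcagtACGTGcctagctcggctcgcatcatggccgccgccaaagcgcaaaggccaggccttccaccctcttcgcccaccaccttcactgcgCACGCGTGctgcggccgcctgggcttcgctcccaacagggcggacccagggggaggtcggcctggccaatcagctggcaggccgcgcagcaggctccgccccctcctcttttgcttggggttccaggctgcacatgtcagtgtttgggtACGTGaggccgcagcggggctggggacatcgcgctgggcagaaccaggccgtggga
Pfkp, chr13:6648722-6649021, minus strand: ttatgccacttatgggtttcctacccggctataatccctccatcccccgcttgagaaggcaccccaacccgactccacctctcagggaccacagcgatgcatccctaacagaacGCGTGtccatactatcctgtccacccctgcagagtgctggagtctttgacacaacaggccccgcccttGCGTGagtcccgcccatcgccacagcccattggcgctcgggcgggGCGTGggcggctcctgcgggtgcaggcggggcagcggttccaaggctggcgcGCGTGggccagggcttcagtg
Slc16a3, chr11:120948817-120949116, plus strand: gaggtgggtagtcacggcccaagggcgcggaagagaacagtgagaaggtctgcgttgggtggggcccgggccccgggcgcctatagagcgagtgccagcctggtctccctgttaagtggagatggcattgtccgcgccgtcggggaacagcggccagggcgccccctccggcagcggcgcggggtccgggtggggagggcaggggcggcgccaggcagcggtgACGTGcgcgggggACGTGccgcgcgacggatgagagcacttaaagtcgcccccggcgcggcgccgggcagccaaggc
Bnip3, chr7:138909457-138909756, minus strand: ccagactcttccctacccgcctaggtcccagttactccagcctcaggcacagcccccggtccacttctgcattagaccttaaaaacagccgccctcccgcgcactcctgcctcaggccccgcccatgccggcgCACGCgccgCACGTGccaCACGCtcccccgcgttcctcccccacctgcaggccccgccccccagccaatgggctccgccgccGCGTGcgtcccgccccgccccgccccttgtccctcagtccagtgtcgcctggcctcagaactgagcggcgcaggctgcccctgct
Ldha start 1, chr7:46845554-46845853, plus strand: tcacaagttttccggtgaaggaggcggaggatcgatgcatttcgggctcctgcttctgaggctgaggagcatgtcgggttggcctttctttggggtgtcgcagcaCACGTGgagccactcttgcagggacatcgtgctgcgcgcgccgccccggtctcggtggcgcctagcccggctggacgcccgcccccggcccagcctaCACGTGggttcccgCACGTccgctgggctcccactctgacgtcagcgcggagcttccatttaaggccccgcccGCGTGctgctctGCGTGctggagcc
Ldha start 2, chr7:46846832-46847131, plus strand: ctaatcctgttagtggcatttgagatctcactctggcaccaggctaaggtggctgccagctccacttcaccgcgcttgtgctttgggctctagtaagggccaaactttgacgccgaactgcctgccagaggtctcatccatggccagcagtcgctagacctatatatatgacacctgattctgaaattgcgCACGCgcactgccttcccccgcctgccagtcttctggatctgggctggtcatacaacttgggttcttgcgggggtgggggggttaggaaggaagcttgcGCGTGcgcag
Pfkfb4, chr9:108991652-108991951, plus strand: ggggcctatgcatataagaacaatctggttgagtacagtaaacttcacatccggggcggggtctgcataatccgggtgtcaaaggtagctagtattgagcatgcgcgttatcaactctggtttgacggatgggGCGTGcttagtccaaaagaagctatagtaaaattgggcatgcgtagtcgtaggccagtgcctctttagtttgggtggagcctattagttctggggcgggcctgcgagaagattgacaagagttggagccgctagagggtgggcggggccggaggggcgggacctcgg

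Cores were frequent in these windows. A core lay in at least 1 window of 31 of the 34 members with an entry (91.2%), against 46.7% of all 27025 genes with an entry. Member windows were also richer in G and C, with a median of 63.3% against 52.7% over all windows. Among windows at or above that member median, 23 of 24 member windows (95.8%) and 71.5% of 7102 windows of any gene held a core. Within the set, cores were found in all 11 members that were higher and had an entry, in both members that were lower and in 18 of 21 that did not pass. A match is a short string of letters in this window and does not show that HIF binds there. The window of Ldha start 1 held 7 matches, that of Bnip3 5, those of Ankrd37 and Pfkp 4 each, those of Adm and Slc16a3 2 each and that of Pfkfb4 1.

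**Figure D1:**
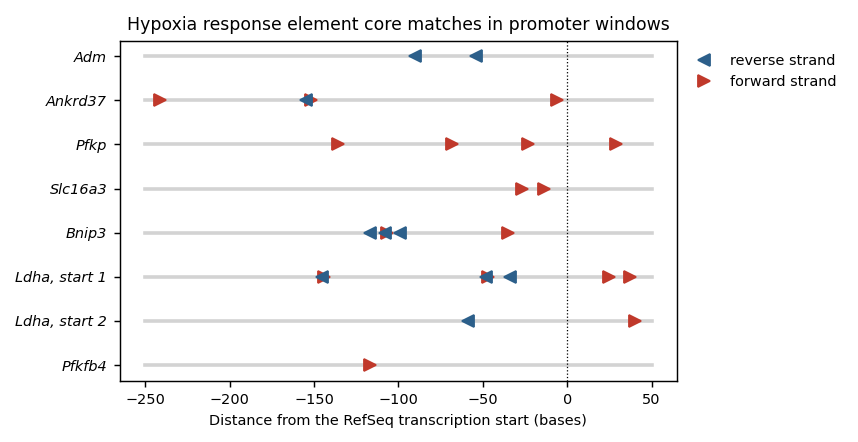
Positions of hypoxia response element cores in the promoter windows printed above, in bases from the RefSeq start (dotted line). Red and blue triangles mark cores read on the forward and reverse strand of the gene; Ldha start 1 carries 7 matches and Pfkfb4 carries 1.

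In Kupffer cells given maresin 1, the 37 listed glycolysis and hypoxia genes were more often higher than lower, by moderate amounts. Counted by the brightest probe of each gene, 12 of 37 members (32.4%) were higher and 2 (5.41%) were lower than in vehicle by limma's moderated test with Benjamini-Hochberg adjustment over all 31110 probes, and 23 did not pass. Over all 24049 genes tested, 11.3% were higher and 12.9% lower. Of the 59 member probes, 17 were higher and 2 lower, against 11.6% and 12.4% of all probes tested. The median log2 difference of the members, MaR1 minus Veh, was 0.12, against -0.02 over all genes. Bright probes lay higher as a whole: the median was 0.16 over the 19 members at or above the members' median brightness, against 0.0876 over all 3650 probes that bright. With quantile normalization the median was 0.0715 over all 37 members, against -0.0259 over all 31110 probes and -0.026 over those bright probes. The 37 include dimmer members, so they are not matched to the bright probes. In all, 2 members, Adm and Epas1, differed by at least 2-fold, where 3.52% of all genes did. The 2 maresin 1 arrays lay above both vehicle arrays for 23 members (62.2%) and below both for 6 (16.2%), where 32.7% and 36.8% of all genes did so. Members are bright on this array, and among genes at least as bright as the median member 14.7% were higher and 5.17% lower, set beside 6 and 1 of the 19 members that bright. Because the listed genes were chosen with results of these arrays known, these shares describe the list and are not a test of it.

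**Figure D2:**
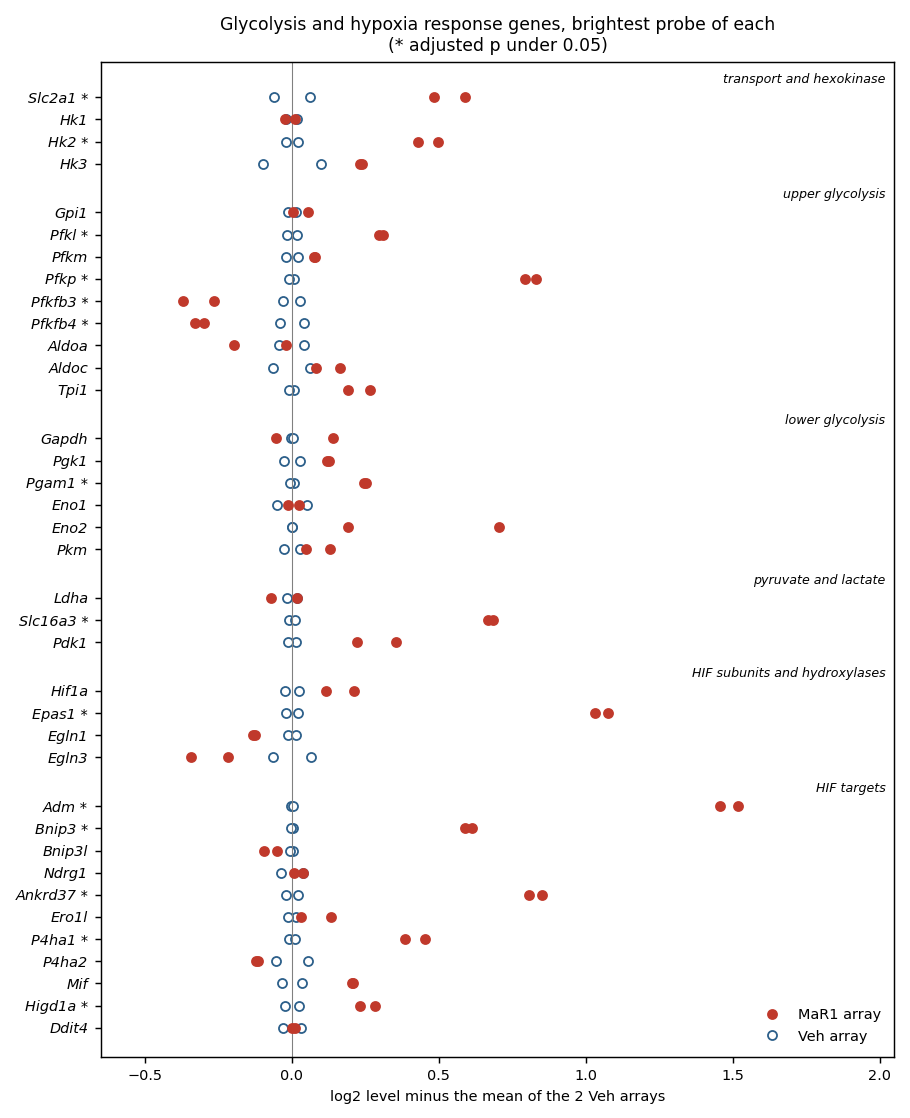
Level of each of the 37 genes on each array, at its brightest probe, as log2 difference from the mean of the 2 Veh arrays. Red points are the 2 MaR1 arrays and open blue points the 2 Veh arrays, genes are grouped by role, and a star marks the 12 higher and 2 lower genes.

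Among all members, 6 kept their call when any 1 of the 4 arrays was left out, namely Adm, Epas1, Ankrd37, Pfkp, Slc16a3 and Bnip3. That is 16.2% of members, against 3.43% of all genes that were higher and kept the call in this way. No lower member did so, against 2.58% of all genes. The other 6 higher members and both lower ones lost it without at least 1 array.

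**Figure D3:**
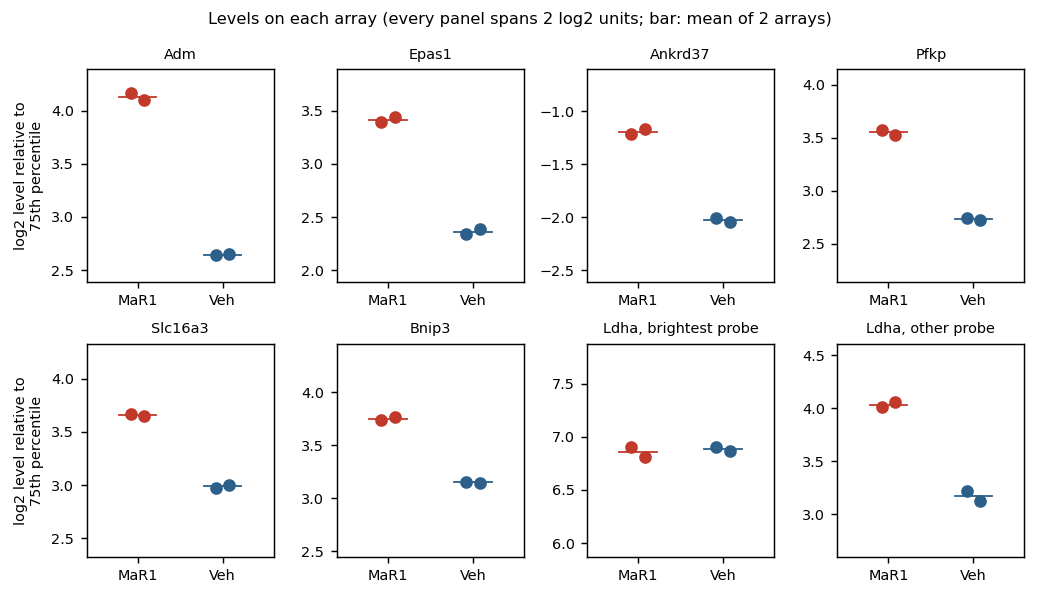
Levels on each array for the 6 members whose call held without each array in turn and for both probes of Ldha, as log2 of the signal relative to the array's 75th percentile. Points are single arrays, MaR1 in red and Veh in blue, and the line is the mean of 2 arrays; each panel spans 2 log2 units. The groups do not overlap for the 6 members and the weaker Ldha probe, and do overlap for the brightest Ldha probe.

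**Figure D4:**
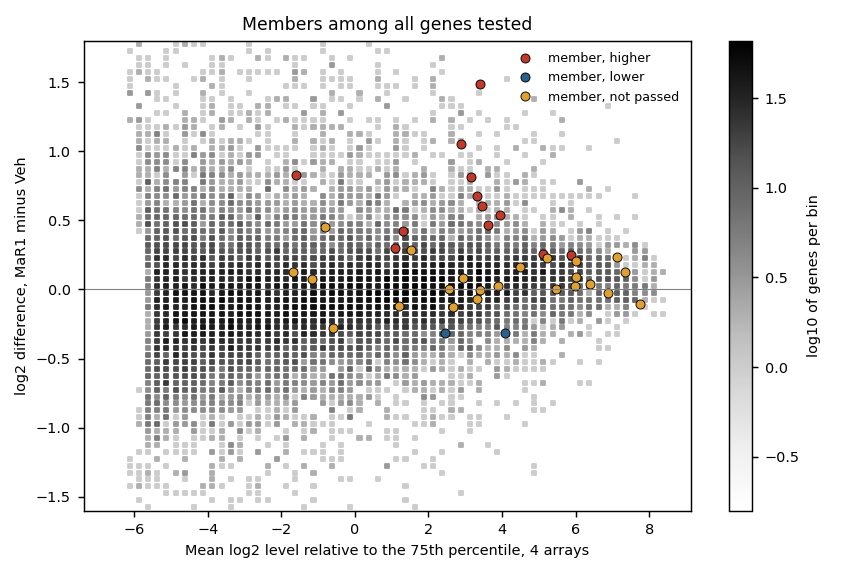
Log2 difference, MaR1 minus Veh, against the mean log2 level over 4 arrays, for all genes tested (grey squares, shaded by log10 of the number of genes in a bin) and the 37 members at their brightest probe (coloured by call). Genes beyond the limits of the vertical axis are not drawn. The 2 members above 1 are Adm and Epas1.

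Glucose enters through the transporter GLUT1, encoded by Slc2a1, and is trapped by hexokinases. Both steps had a member that rose. Levels are given here and below as log2 of the processed signal relative to the array's 75th percentile, so that a difference of 1 is a 2-fold change. Slc2a1 had 4.15 and 4.25 on MaR1 arrays, against 3.61 and 3.73 on Veh arrays. The groups did not overlap, and Slc2a1 was 1.45-fold higher, with 0.54 ± 0.08 on the log2 scale (adjusted p = 0.0165). Each difference here and below is given ± its SE from limma, with n = 2 arrays in each group. Hk2, the inducible hexokinase of growing and activated cells, had 3.80 and 3.87 on MaR1 arrays, against 3.35 and 3.39 on Veh arrays. It rose 1.38-fold (0.46 ± 0.06, adjusted p = 0.0139). The other hexokinase genes did not pass. Hk1, the housekeeping form, had a difference of -0.01 ± 0.06 (adjusted p = 0.933). Hk3, a form known from myeloid cells, differed by 0.24 ± 0.09 at its brightest probe (adjusted p = 0.121) and by 0.20 ± 0.05 at the other (adjusted p = 0.0675), with both MaR1 arrays above both Veh arrays at each. A second Hk1 probe was on no array well above background. The call of Slc2a1 was lost without Veh replicate 1 (adjusted p = 0.0721) or MaR1 replicate 2 (adjusted p = 0.0699), and when dim probes were kept. That of Hk2 was lost without Veh replicate 1 (adjusted p = 0.0727), Veh replicate 2 (adjusted p = 0.0598) or MaR1 replicate 2 (adjusted p = 0.063).

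The committed step of glycolysis is run by phosphofructokinase, and 2 of its 3 isozyme genes rose. Both listed genes of enzymes that make its activator fell. Pfkp, the platelet-type isozyme, had 3.57 and 3.53 on MaR1 arrays, against 2.75 and 2.73 on Veh arrays at its brightest probe. It rose 1.76-fold (0.81 ± 0.06, adjusted p = 0.00416). Its second probe gave 0.87 ± 0.06 (adjusted p = 0.0036), and both probes kept the call whichever array was left out. Pfkl, the liver-type isozyme, had 1.23 and 1.25 on MaR1 arrays, against 0.95 and 0.92 on Veh arrays. It rose 1.23-fold (0.30 ± 0.06, adjusted p = 0.0277). Pfkm, the muscle-type isozyme, differed by 0.08 ± 0.06 and did not pass (adjusted p = 0.355). The difference between the isozymes' responses was not tested.

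Pfkfb3 and Pfkfb4 encode bifunctional enzymes that set fructose 2,6-bisphosphate, the strongest activator of phosphofructokinase. Pfkfb3, the isoform best known from inflammatory macrophages, had 3.87 and 3.98 on MaR1 arrays, against 4.21 and 4.27 on Veh arrays at its brightest probe. It fell by 0.32 on the log2 scale (SE 0.07, adjusted p = 0.0391). A second Pfkfb3 probe, with -1.97 and -1.87 on MaR1 arrays and -1.85 and -1.69 on Veh arrays, differed by -0.15 ± 0.08 and did not pass (adjusted p = 0.256). Pfkfb4 had 2.30 and 2.27 on MaR1 arrays, against 2.56 and 2.64 on Veh arrays. It fell by 0.31 on the log2 scale (SE 0.06, adjusted p = 0.0327), and its second probe was on no array well above background. These 2 are the members that were lower, in the set where Pfkp and Pfkl rose. Outside the set, Pfkfb2 of the same family was also lower (-0.30 ± 0.06, adjusted p = 0.0411), with -0.24 and -0.21 at its other probes. That call did not hold with any array left out. Pfkfb1 did not pass (0.03 ± 0.06, adjusted p = 0.793). The calls of Pfkl, Pfkfb3 and Pfkfb4 were lost when any single array was dropped, with adjusted p from 0.0861 to 0.126, from 0.0781 to 0.152 and from 0.0932 to 0.138. All 3 calls were also lost when dim probes were kept.

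Of the remaining enzymes up to the triose phosphates, none passed at its brightest probe. Gpi1, glucose-6-phosphate isomerase, differed by 0.03 to 0.09 over its 3 probes. Of the aldolase genes, Aldoa differed by -0.11 ± 0.09 (adjusted p = 0.397) and Aldoc by 0.12 ± 0.07 (adjusted p = 0.281). Tpi1, triosephosphate isomerase, had 5.38 and 5.31 on MaR1 arrays, against 5.13 and 5.11 on Veh arrays at its brightest probe, where 0.23 ± 0.06 did not pass (adjusted p = 0.0613). At another probe, with 3.66 and 3.55 on MaR1 arrays and 3.29 and 3.32 on Veh arrays, Tpi1 rose by 0.30 ± 0.07 (adjusted p = 0.0417), and at the third it differed by 0.24 ± 0.06 (adjusted p = 0.0503). The 3 Tpi1 probes thus lay on either side of the threshold with differences of similar size. That single call was lost when any single array was dropped (adjusted p from 0.0785 to 0.161), with quantile normalization, in the authors' value table and once dim probes were kept.

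In the later steps of the pathway, from glyceraldehyde phosphate to pyruvate, 1 of 6 genes rose (16.7%), close to the 14.7% of all genes as bright as the median member. Pgam1, phosphoglycerate mutase, had 6.00 and 6.01 on MaR1 arrays, against 5.77 and 5.75 on Veh arrays at its brightest probe. It rose 1.19-fold (0.25 ± 0.05, adjusted p = 0.0408), with the same size at its second probe (0.25 ± 0.06, adjusted p = 0.0448). Gapdh, which oxidizes the triose phosphate and often serves as a reference gene, had 6.52 and 6.32 on MaR1 arrays, against 6.38 and 6.38 on Veh arrays at its brightest probe. The groups overlapped, and none of the 6 Gapdh probes passed, with differences from 0.03 to 0.13. Pkm, pyruvate kinase, had 6.10 and 6.01 on MaR1 arrays, against 5.99 and 5.94 on Veh arrays, a difference of 0.09 ± 0.06 (adjusted p = 0.353). Its second probe, at 0.14 ± 0.06, did not pass either (adjusted p = 0.148). Pgk1, phosphoglycerate kinase, differed by 0.12 ± 0.06 (adjusted p = 0.188) and Eno1, the ubiquitous enolase, by 0.01 ± 0.07 (adjusted p = 0.958). Eno2, the neuronal enolase gene, stood at -0.35 and -0.86 on MaR1 arrays, against -1.05 and -1.05 on Veh arrays. The MaR1 arrays of Eno2 lay further apart than those of any other member at its brightest probe, and its difference of 0.45 ± 0.18 did not pass (adjusted p = 0.148). Both Pgam1 calls were lost when any single array was dropped (adjusted p from 0.112 to 0.179), when dim probes were kept, in the authors' value table and with quantile normalization. With quantile normalization the difference of Pgam1 was 0.07 at its brightest probe. Among genes that had not passed, 5 of the 6 Gapdh probes, the brightest Eno1 and Pkm probes and 2 of the 3 Gpi1 probes changed sign there and in the authors' table, without passing in any of these settings.

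Of the genes that handle pyruvate and lactate, the lactate exporter rose, while the probes of lactate dehydrogenase differed. Slc16a3 encodes MCT4, the lactate exporter of highly glycolytic cells. It had 3.67 and 3.65 on MaR1 arrays, against 2.98 and 3.0 on Veh arrays, and rose 1.6-fold (0.67 ± 0.05, adjusted p = 0.00547). Ldha, the subunit that favours lactate formation, was read by 2 probes that carry the same RefSeq accession. The brightest probe had 6.90 and 6.81 on MaR1 arrays, against 6.90 and 6.87 on Veh arrays. The groups overlapped, and the difference of -0.03 ± 0.06 did not pass (adjusted p = 0.779). The other probe had 4.01 and 4.06 on MaR1 arrays, against 3.22 and 3.13 on Veh arrays. There Ldha was 1.81-fold higher (0.86 ± 0.07, adjusted p = 0.00495), a call kept whichever array was left out and in each processing alternative fitted probe by probe.

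The disagreement was measured directly as the log2 ratio of the brightest Ldha probe to the other on the same array, which no scaling of whole arrays can change. It was 2.90 and 2.76 on MaR1 arrays, against 3.68 and 3.74 on Veh arrays, a difference of -0.89 ± 0.08 (adjusted p = 0.0408 by limma over 7061 such probe pairs of all genes, 0.85% of which passed). The ratio was added after the Ldha probes were seen to differ, so its p-value describes this pair and is not a test of it. Among the 22 probe pairs of 14 members, Ldha was the only one to pass. The call was lost when any single array was dropped (adjusted p from 0.0797 to 0.161), while the size stayed between -0.95 and -0.82. Which transcript form or related sequence the weaker probe reads was not tested, since probe sequences were not used here. Ldhb, the other lactate dehydrogenase subunit, differed by -0.11 ± 0.06 at its brightest probe (adjusted p = 0.228) and by -0.34 at its other.

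**Figure D5:**
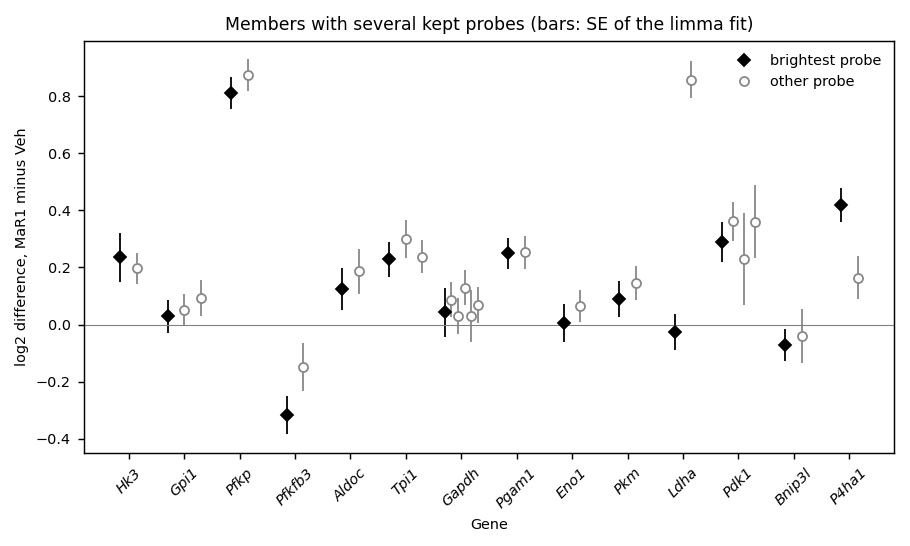
Log2 difference, MaR1 minus Veh, of every kept probe of the 14 members with several kept probes. Black diamonds are the brightest probe of a gene, open circles its other probes, and bars the SE of the limma fit. The probes of Ldha lie at -0.03 and 0.86, whereas both Pfkp probes lie above 0.8.

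Pdk1 encodes the kinase that shuts the pyruvate dehydrogenase complex and so keeps pyruvate from being oxidized. Its brightest probe had 1.61 and 1.74 on MaR1 arrays, against 1.40 and 1.38 on Veh arrays, and just missed the threshold (0.29 ± 0.07, adjusted p = 0.0521). A second Pdk1 probe had -1.10 and -1.22 on MaR1 arrays, against -1.53 and -1.52 on Veh arrays, and passed (0.36 ± 0.07, adjusted p = 0.0293). The differences of the 4 Pdk1 probes lay between 0.23 and 0.36, and the call was lost when any single array was dropped (adjusted p from 0.0613 to 0.115) and when dim probes were kept.

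Of the listed HIF alpha subunit genes, that for HIF-2α rose and that for HIF-1α did not pass. Epas1, which encodes HIF-2α, had 3.39 and 3.44 on MaR1 arrays, against 2.34 and 2.38 on Veh arrays. It was 2.08-fold higher (1.05 ± 0.06, adjusted p = 0.00295), and its call held whichever array was left out. Endothelial cells also carry Epas1, and the summed signal of sinusoidal endothelial markers, relative to the array's 75th percentile, was 74.8 and 74.9 on MaR1 arrays, against 60.6 and 63.7 on Veh arrays. Its part in the Epas1 result was not tested. Hif1a, which encodes HIF-1α, had 4.51 and 4.61 on MaR1 arrays, against 4.37 and 4.42 on Veh arrays, without overlap. The difference of 0.16 ± 0.07 did not pass (adjusted p = 0.143). Hif3a, an alpha subunit gene outside the set, was dim, with -6.27 and -5.68 on MaR1 arrays, against -4.99 and -5.43 on Veh arrays. Its difference of -0.76 ± 0.25 did not pass (adjusted p = 0.0988). The prolyl hydroxylase genes Egln1 (PHD2) and Egln3 (PHD3), whose products mark HIF alpha for destruction and which are themselves induced by hypoxia, had values of -0.13 ± 0.05 (adjusted p = 0.162) and -0.28 ± 0.08 (adjusted p = 0.074). For both, the 2 MaR1 arrays lay below the 2 Veh arrays. HIF alpha is controlled mainly at the protein level, which arrays do not measure.

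Of the 11 HIF target genes, 5 rose, none fell and 6 did not pass, with a median log2 difference of 0.21. The share that rose was 45.5%, against 11.3% of all genes and 14.7% of those as bright as the median member. Adm, the gene of the vasodilator peptide adrenomedullin, had 4.16 and 4.10 on MaR1 arrays, against 2.64 and 2.65 on Veh arrays. It was 2.80-fold higher (1.49 ± 0.06, adjusted p = 0.00177), and no other member differed by as much. Ankrd37, a small ankyrin-repeat gene induced by HIF, had -1.22 and -1.17 on MaR1 arrays, against -2.0 and -2.04 on Veh arrays. Its rise was 1.78-fold (0.83 ± 0.06, adjusted p = 0.0042).

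Of the mitophagy receptor genes, 1 rose. Bnip3 had 3.74 and 3.76 on MaR1 arrays, against 3.15 and 3.15 on Veh arrays, and rose 1.52-fold (0.60 ± 0.05, adjusted p = 0.00662). Its paralogue Bnip3l (NIX) differed by -0.07 ± 0.06 (adjusted p = 0.391) and by -0.04 ± 0.09 at a second probe (adjusted p = 0.769). Higd1a, a hypoxia-induced gene of the mitochondrial inner membrane, had 5.21 and 5.26 on MaR1 arrays, against 5.01 and 4.96 on Veh arrays, and rose 1.20-fold (0.26 ± 0.06, adjusted p = 0.0461).

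The collagen prolyl hydroxylase genes, whose products mature collagen in the endoplasmic reticulum, included 1 that rose. P4ha1 had 1.56 and 1.49 on MaR1 arrays, against 1.1 and 1.12 on Veh arrays at its brightest probe, and rose 1.34-fold (0.42 ± 0.06, adjusted p = 0.016). Its second probe had -1.38 and -1.22 on MaR1 arrays, against -1.47 and -1.45 on Veh arrays, and did not pass (0.16 ± 0.08, adjusted p = 0.188). P4ha2 differed by -0.12 ± 0.07 (adjusted p = 0.25). Ero1l, the oxidase that drives disulfide formation in the same compartment, differed by 0.08 ± 0.07 (adjusted p = 0.393). The calls of P4ha1 and Higd1a were lost when any single array was dropped (adjusted p from 0.0569 to 0.0817 and from 0.103 to 0.182), that of Higd1a also with quantile normalization, in the authors' value table and once dim probes were kept.

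Several textbook HIF targets did not pass. Mif, the macrophage migration inhibitory factor gene, differed by 0.21 ± 0.06 (adjusted p = 0.0701) with no overlap between groups. Ndrg1, a stress-response gene, differed by 0.02 ± 0.06 (adjusted p = 0.801). Ddit4, the mTOR inhibitor gene REDD1, differed by 0.00 ± 0.06 (adjusted p = 0.958), and both its groups and those of Ndrg1 overlapped.

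Among other genes of the same pathways, a list of 50 further genes of glucose transport, glycogen, the pentose phosphate route and pyruvate use had more members lower than higher. Of its 46 tested genes, 7 rose (15.2%) and 11 fell (23.9%), against 11.3% and 12.9% of all genes, with a median log2 difference of -0.10. The share that rose was near that of all genes. Those with the smallest p were Pygl, Pgm2l1, Slc16a1 and Slc2a3. Pygl, liver glycogen phosphorylase, fell by 0.85 on the log2 scale (SE 0.07, adjusted p = 0.00534), and Pgm2l1, which makes glucose 1,6-bisphosphate, fell by 1.02 (SE 0.08, adjusted p = 0.00541). Slc2a3, the gene of the high-affinity transporter GLUT3, had -1.64 and -1.82 on MaR1 arrays, against -0.71 and -0.85 on Veh arrays, and fell by 0.95 (SE 0.09, adjusted p = 0.00777) where Slc2a1 rose. Slc16a1, which encodes the lactate transporter MCT1, had 1.15 and 1.22 on MaR1 arrays, against 0.29 and 0.45 on Veh arrays. It rose by 0.81 ± 0.08 (adjusted p = 0.00744), in the same direction as Slc16a3. These 4 calls each held with any array left out. Without any 1 array, the list had 3 higher and 3 to 6 lower genes. Calls that held without each array in turn numbered 2 higher (4.35%) and 3 lower, against 3.43% and 2.58% of all genes.

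A list of 67 further genes of the HIF machinery and its reported targets had more members higher than lower. Of its 60 tested genes, 16 rose (26.7%) and 6 fell (10%), against 11.3% and 12.9% of all genes, with a median of 0.08. The share that fell was no higher than that of all genes. Sdc4, a heparan sulfate proteoglycan gene, rose by 2.03 ± 0.06 (adjusted p = 0.00143), and Edn1, the gene of the vasoconstrictor endothelin-1, had 1.14 and 1.32 on MaR1 arrays, against -0.54 and -0.59 on Veh arrays, and was 3.47-fold higher (adjusted p = 0.00241). Rcor2, a corepressor gene, rose by 1.07 ± 0.06 (adjusted p = 0.00295) and the chemokine gene Cxcl12 by 1.12 ± 0.07 (adjusted p = 0.00399) at its brightest probe, with 0.23 at the other. These calls, too, each held with any array left out. The 6 genes of the list that fell were Angptl4 (-1.03 ± 0.12, adjusted p = 0.0104), Loxl2 (-0.63), Pdgfb (-0.54), Hmox1 (-0.44), Ppfia4 (-0.40) and Cxcr4 (-0.32). Vegfa, the angiogenic factor gene and a textbook HIF target, was looked up after its values were seen. It rose by 0.37 ± 0.06 at its brightest probe (adjusted p = 0.0188), with 0.08 to 0.19 at its 3 other probes, and the Vegfa call did not hold when any single array was left out (largest adjusted p = 0.0957). Without any 1 array, the list had 10 to 11 higher and 1 to 3 lower genes. Calls that held without each array in turn numbered 10 higher (16.7%) and 0 lower, against 3.43% and 2.58% of all genes.

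Markers of other cell types moved with the treatment in these cultures. Adm and Edn1, like Epas1, are also known from endothelial cells, and of 6 tested sinusoidal endothelial markers, whose summed signal is given above beside Epas1, 3 rose (50%, against 11.3% of all genes) and none fell. Pecam1, which myeloid cells also carry, rose 2.22-fold, the scavenger receptor gene Stab2 1.38-fold and Cdh5 1.26-fold, whereas Lyve1 (-0.16) and Clec4g (-0.18) lay below both Veh arrays on both MaR1 arrays without passing (adjusted p = 0.11 and 0.128). The call of Pecam1 held with any array left out, and those of Stab2 and Cdh5 did not. In the other direction, 1 of 6 tested hepatocyte markers fell (16.7%, against 12.9% of all genes), none rose, and the summed signal of all 9 listed was 16.2 and 17.3 on MaR1 arrays, against 20.2 and 18.8 on Veh arrays. The hepatocyte markers G6pc, Pck1 and Cps1 were on no array well above background. B cell markers had a summed signal of 3.63 and 3.43 on MaR1 arrays, against 1.93 and 2.17 on Veh arrays, and 3 of 5 rose (60%, against 11.3% of all genes). The B cell gene Ms4a1 rose 2.32-fold, the T cell and dendritic cell gene Cd8a 2.41-fold and the dendritic cell gene Clec9a 1.98-fold. Each of these calls held with any array left out. Other markers of these lists went the other way. Cd4 (-0.36) and Ncr1 (-0.34) fell, with calls lost when any single array was dropped. Flt3 (-0.28), Siglech (-0.28 at its brightest probe) and Pax5 (-0.42) lay below both Veh arrays on both MaR1 arrays without passing. The summed signal of dendritic cell markers overlapped between groups, with 42.53 and 41.16 on MaR1 arrays, against 42.46 and 38.99 on Veh arrays. The summed signal of T and NK cell markers was 6.69 and 6.72 on MaR1 arrays, against 7.69 and 7.61 on Veh arrays. That of stellate cell markers was 3.09 and 3.16 on MaR1 arrays, against 3.98 and 4.06 on Veh arrays. Of 5 tested stellate cell markers, 2 fell (40%, against 12.9% of all genes) and none rose. All 7 Kupffer cell markers were well above background on all 4 arrays, and their summed signal was 775.8 and 760.3 on MaR1 arrays, against 871.7 and 838.3 on Veh arrays. Of these 7, 1 fell (14.3%, against 12.9% of all genes). It was Adgre1, the gene of the macrophage marker F4/80, which fell by 0.67 on the log2 scale (SE 0.06, adjusted p = 0.00626), a call that held with any array left out, with -0.71 at its second probe. Cd5l (-0.19, adjusted p = 0.0806), Marco (-0.19, adjusted p = 0.0899) and Timd4 (-0.09, adjusted p = 0.31) lay below both Veh arrays on both MaR1 arrays without passing. Vsig4 (0.26, adjusted p = 0.0699) and C1qa (0.13, adjusted p = 0.176) lay above both Veh arrays on both MaR1 arrays, also without passing. Clec4f differed by 0.04 ± 0.07 (adjusted p = 0.692). Fewer cells of a type and less RNA per cell cannot be told apart in bulk cultures, and the part of any of these cells in the results above was not tested. Markers named here other than Clec4f were chosen after their values were seen. Arg1, the arginase gene of alternatively activated macrophages, was 8.42-fold higher on MaR1 arrays.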

How the data were processed

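Cy3-labelled RNA of Kupffer cells was read on 4 Agilent arrays with 1 colour, 2 for each group. The deposited spot intensity values are Feature Extraction output (version 11.0.1.1, per the file headers), whose processed signal is background-corrected. The authors' deposited table of log2 values served as an alternative. How that table was normalized is not given in the sources used here.

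The processed signal was divided by the 75th percentile of all spots but controls on that array (846.5 to 987.6) and its log2 taken. Control spots and spots marked as outliers (94 to 123 per array) were left out, and spots of a probe were averaged. Between 54.4% and 55.6% of probes were well above background on an array, and precision is limited by how few arrays there are. Probes were named through their RefSeq accession or, failing that, through a gene symbol or synonym. In all 33024 probes (58.3%) were matched to a RefSeq symbol in these ways, and the names are those of GRCm38.p6. The table holds several probes for some genes, and a gene was counted by its brightest.

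Differences were fitted with limma 3.58.1 (R 4.3.3) over 31110 probes, with Benjamini-Hochberg adjustment and a threshold of 0.05. The fit was tested on simulated data. Ratios between probes of a gene were fitted in the same way. Alternatives were quantile normalization, normexp with an offset of 50 on the median spot signal (the mean signal was not used here), the authors' table, other filters, a mean-variance trend, other rules for genes with several probes, a replicate block and leaving out each array. The ratio of the Ldha probes and its alternatives were added after seeing the data.

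The genes and lists were chosen with earlier results of these data known. Array values are given for members called at their brightest probe without overlap of the groups, for members whose probes differ in call or direction, and for Slc2a1, Hk2, Gapdh, Pkm, Ldha, Hif1a and Epas1. From each list of further genes the 4 with the smallest p are named. Ldhb, Pfkfb1, Pfkfb2, Hif3a, Vegfa and the further HIF genes that fell are named outside this rule. Markers of B cells (3 of 5 tested rose, 0 fell), T and NK cells (1 rose and 2 fell of 6), dendritic cells (3 of 5 rose, 0 fell), neutrophils (0 of 5 rose or fell) and stellate cells (0 rose and 2 fell of 5) were measured in the same fit. Over all genes tested, 11.3% rose and 12.9% fell. Promoter windows were searched with Python 3.11.15.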

Additional observations from a re-analysis of the deposited data

How the results depend on the processing

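The calls of Adm, Epas1, Ankrd37, Pfkp, Slc16a3, Bnip3 and the weaker Ldha probe held under each alternative fitted probe by probe. Rules that give 1 row per gene do not test the weaker Ldha probe alone. Without a filter on dim probes, 1483 probes were higher and 1275 lower in place of 3600 and 3869, 10 and 0 member probes in place of 17 and 2, 0 members were lower in place of 2, 4 and 6 of the further glycolysis genes passed in place of 7 and 11, and 1 further HIF gene was lower in place of 6. With the replicate block, 2546 probes were lower, 11 member probes were higher and 0 lower, 0 members were lower, 6 further glycolysis genes were lower, and the Ldha probe ratio of -0.89 no longer passed (adjusted p = 0.0796). Replicates with the same number did not deviate together (correlation -0.026 over 31110 probes). The labels do not say what a replicate number marks, and this correlation cannot settle whether the numbers pair the arrays. With a mean-variance trend, 5905 probes were higher and 5851 lower, 27 member probes and 11 further glycolysis genes were higher. With the mean of a gene's probes, 1 member was lower. The count of 12 members higher became 8 without a filter on dim probes and 9 with the replicate block. It was 10 with quantile normalization, 10 in the authors' table, 16 with normexp and 18 with a mean-variance trend. Smaller changes of the other counts are not listed.

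Leaving out each array in turn gave 1295 to 1701 probes higher and 1146 to 1805 lower, 8 to 10 member probes higher and 0 lower, and 6 to 8 members higher and 0 lower. It gave 3 further glycolysis genes higher and 3 to 6 lower, 10 to 11 further HIF genes higher and 1 to 3 lower, and an Ldha probe ratio between -0.95 and -0.82. These fits have fewer arrays, and the lone array of a group is assumed to vary like the others.

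Some differences near 0 changed sign, none of them passing in the fit as reported. With quantile normalization they were Ddit4 (-0.0395), Eno1 (-0.1533), Gapdh (-0.0479, -0.144, -0.1344, -0.0921 and -0.1268), Gpi1 (-0.1536 and -0.1129), Ndrg1 (-0.0623) and Pkm (-0.0897). In the authors' table they were Ddit4 (-0.0346), Eno1 (-0.105), Gapdh (-0.0148, -0.0905, -0.0983, -0.0459 and -0.0925), Gpi1 (-0.0898 and -0.0458), Ndrg1 (-0.0499) and Pkm (-0.0347). With normexp, Pfkm had -0.0034. Without 1 array, the ranges crossed 0 for Bnip3l (-0.1557 to 0.0725 at its weaker probe), Ddit4 (-0.0249 to 0.0344), Eno1 (-0.0458 to 0.0567), Gapdh (-0.0125 to 0.0752, -0.079 to 0.1387 and -0.0544 to 0.139), Hk1 (-0.026 to 0.0111), Ldha (-0.0717 to 0.0188 at its brightest probe) and Ndrg1 (-0.0147 to 0.0605). Over the 3650 probes at least as bright as the median member, the median difference was 0.0876 as reported and -0.026 with quantile normalization, a shift of -0.107, so members' differences there are relative to that shift. The cause was not tested.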
